A study of Mus musculus with 20 samples.

Results

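Wnt ligands, the Frizzled receptors that bind them and their secreted inhibitors were followed through 20 mouse poly(A) RNA-seq libraries. Members were the genes whose symbols are Wnt, Fzd, Sfrp or Dkk followed by the family number, plus Frzb, with 1 further Wnt gene left out. This gave 37 of the 21361 genes in the count table: 18 Wnt ligands, 10 Frizzled receptors, 5 secreted Frizzled-related proteins (Sfrp1, Sfrp2, Sfrp4, Sfrp5 and Frzb) and 4 Dickkopf genes (Dkk1 to Dkk4). The low-count filter kept 33 of them for testing. Dkk2, Wnt1, Wnt2 and Wnt10b were not tested by edgeR and did not exceed 0.34 CPM (read counts scaled to a library's total) in any library.

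Each library comes from 1 cell line. Epiblast-like cells (EpiLCs), an in vitro state close to the early post-implantation epiblast, were derived from 3 PGC-ESC lines lacking Puma and Noxa (EpiLC DKO, lines 1 to 3) and from 2 wildtype lines (EpiLC Host, lines 3 and 4). The parents were the 3 PGC-ESC DKO lines, named for an origin in primordial germ cells, and lines 3 and 4 of the 4 wildtype embryonic stem cell lines from host embryos (ESC Host). All of these carry the strain label C57Bl6J. The DKO and Host EpiLC libraries also differ in reporter. A mixed C57Bl6J/129SvEvRoEp label belongs to the 5 PGC-ESC lines without Bax (PGC-ESC BaxKO), the 2 ESC lines without Bax (ESC BaxKO) and the single ESC BaxHet line, which had no replicate. Genotype and strain label therefore change together between the Bax lines and the other lines, and both sets hold PGC-ESC and ESC lines. No label places any 2 libraries in the same culture, so p-values measure the spread between these lines. The labels give a single culture protocol, for ESCs, whose medium held LIF and inhibitors of GSK3 and MEK. The sources used here do not give the EpiLC step, so a change of medium and a change of cell state cannot be told apart.

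Library totals ran from 14255399 to 33376660 counts. Bax was at 1.66 to 2.43 CPM in the BaxKO lines, against 109.6 CPM in ESC BaxHet and 229 to 533 CPM elsewhere. Pmaip1 (Noxa) was at 1.26 to 5.69 CPM in the DKO libraries, against 20.2 to 333 CPM in the Host libraries, whereas Bbc3 (Puma) was at 27.5 to 90.5 CPM in the DKO libraries, against 38.5 to 94.3 CPM in the Host libraries, so its level does not check that label. The label EpiLC was checked against marker genes. The 6 naive ESC markers summed to 152 to 256 CPM in EpiLC DKO, against 2980 to 3630 CPM in PGC-ESC DKO, and to 225 to 241 CPM in EpiLC Host, against 2860 to 4040 CPM in ESC Host, and all 6 were lower in both conversions. The formative epiblast markers (Fgf5, Otx2, Pou3f1, Dnmt3a and Dnmt3b) were higher for 5 of 5 in the DKO lines and 4 of 5 in the Host lines. The 3 pluripotent markers (Pou5f1, Sox2 and Sall4) were all lower in both conversions. They summed to 1110 to 1520 CPM in EpiLC DKO, against 2550 to 3110 CPM in PGC-ESC DKO. In EpiLC Host the sum was 946 to 1100 CPM, against 2430 to 2900 CPM in ESC Host. Of 4 tested mesendoderm markers 1 was higher and 2 were lower in each conversion, and of 3 trophoblast markers 1 was lower. Neuroectoderm markers moved too, with sums of 149 to 206 CPM in EpiLC DKO against 19.9 to 21.9 CPM in PGC-ESC DKO, and 237 to 257 CPM in EpiLC Host against 18.3 to 24.4 CPM in ESC Host, and 4 of 5 were higher in each conversion. The 8 fibroblast or feeder markers summed to 16.6 to 19.4 CPM in EpiLC DKO against 3.35 to 6.05 CPM in PGC-ESC DKO, and to 15.9 to 19.8 CPM in EpiLC Host against 3.46 to 7.57 CPM in ESC Host. The 6 primitive endoderm markers summed to 11.9 to 20.5 CPM in EpiLC DKO against 4.91 to 8.05 CPM in PGC-ESC DKO, and to 19.5 to 30 CPM in EpiLC Host against 5.72 to 12.7 CPM in ESC Host, with 1 of 6 higher in each conversion. The part of these markers in the results below was not tested. In bulk RNA, fewer cells of a type and less RNA per cell cannot be told apart. Rn45s, a ribosomal RNA precursor that marks carry-over in poly(A) libraries, was at 17100 to 51900 CPM in all EpiLC and PGC-ESC DKO libraries, in ESC Host 3 and 4 and in ESC BaxKO 2, against 1910 to 5110 CPM in the rest, so the conversion of the DKO lines lies wholly within the high set.

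Wnt ligands are lipid-modified secreted proteins that bind a Frizzled, a receptor with a cysteine-rich outer domain, together with the co-receptors Lrp5 or Lrp6. Canonical signalling stops GSK3 from marking beta-catenin for destruction, so that beta-catenin accumulates and acts with TCF/LEF factors on target genes, and other branches steer cell polarity. Sfrp proteins carry a Frizzled-like domain and bind Wnts outside the cell, whereas Dkk1 blocks Lrp5 and Lrp6. In mouse ESCs the pathway is known for sustaining self-renewal, and a GSK3 inhibitor in the medium acts on it below the receptors.

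Most of the family changed in both conversions. The test throughout is edgeR's quasi-likelihood F test, with p adjusted by Benjamini-Hochberg over 16363 genes and read at an adjusted p under 0.05. By that test 21 of 33 tested members (63.6%) changed in EpiLC DKO against PGC-ESC DKO, 16 of them higher and 5 lower. The share of all tested genes called in that comparison was 47.6%, with 25.1% higher and 22.5% lower. In EpiLC Host against ESC Host 21 of 33 members (63.6%) also changed, 15 higher and 6 lower, where 44% of all genes were called, 22.4% higher and 21.7% lower. The median log2 fold change of the tested members was 0.83 in the DKO lines, against 0.01 over all genes, and 0.75 in the Host lines, against -0.03. The first median is the same with Wnt9b and Frzb, which had no count in PGC-ESC DKO, at their lower bounds. A total of 15 members rose in both conversions and 5 fell in both; Wnt16 was called in the DKO lines alone and Wnt6 in the Host lines alone. Fold changes are TMM-scaled; scaling to library totals, as in the CPM values, would raise the median change of all genes to 0.21 in the DKO and 0.11 in the Host conversion.

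**Figure D1:**
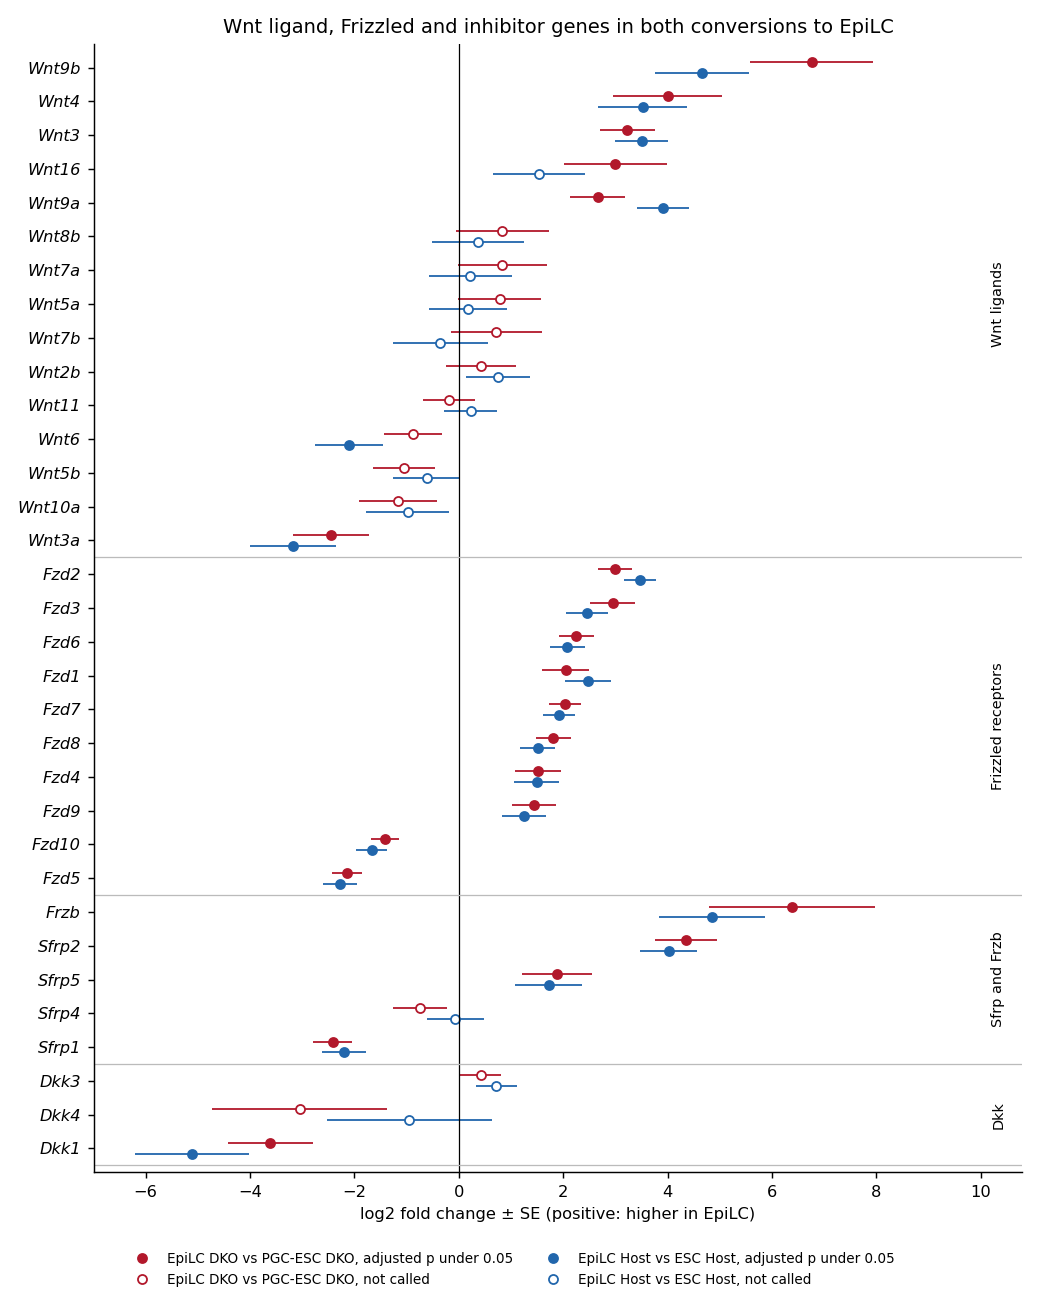
Log2 fold change with its standard error for the 33 tested members, grouped by role, in EpiLC DKO against PGC-ESC DKO (red) and EpiLC Host against ESC Host (blue); filled points have an adjusted p under 0.05. The red points of Wnt9b and Frzb are fitted against a group without counts and are no bound. All 10 Frizzled genes are filled in both colours, 8 to the right of 0 and Fzd5 and Fzd10 to the left.

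Among the ligands, 6 of 15 tested genes (40%) were called in each conversion, a share near that of all genes. Wnt3, Wnt4, Wnt9a and Wnt9b rose in both and Wnt3a fell in both. Wnt3, which the mouse embryo needs to form a primitive streak, had 18.3, 15.1 and 9.08 CPM in EpiLC DKO, against 1.32, 1.05 and 1.54 CPM in PGC-ESC DKO, and 14.8 and 9.20 CPM in EpiLC Host, against 1.02, 1.23, 0.433 and 1.19 CPM in ESC Host. Every EpiLC library stood above every other library, the highest of which was PGC-ESC BaxKO 4 at 3.83 CPM. The log2 fold change was 3.23 ± 0.53 in the DKO lines (adjusted p 8.69e-05) and 3.50 ± 0.51 in the Host lines (adjusted p 2.71e-05).

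Wnt9a, known for its part in joint formation, had 4.94, 4.60 and 2.24 CPM in EpiLC DKO, against 0.400, 0.491 and 0.772 CPM in PGC-ESC DKO, and 11.9 and 5.09 CPM in EpiLC Host, against 0.833, 0.660, 0.371 and 0.199 CPM in ESC Host. The groups did not overlap, and EpiLC Host 3 was the highest of all libraries. Its log2 fold change was 2.66 ± 0.53 in the DKO lines (adjusted p 0.000503) and 3.91 ± 0.50 in the Host lines (adjusted p 6.65e-06). Wnt4, a ligand of kidney and female gonad development, had 2.49, 3.29 and 0.435 CPM in EpiLC DKO, against 0, 0.281 and 0.129 CPM in PGC-ESC DKO, and 4.30 and 1.96 CPM in EpiLC Host, against 0.265, 0.220, 0.155 and 0.348 CPM in ESC Host. The levels within EpiLC DKO were far apart, with line 3 the lowest EpiLC library, yet no ESC or PGC-ESC library reached it. Wnt4 rose by 4.00 ± 1.05 on the log2 scale in the DKO lines (adjusted p 0.00486) and by 3.52 ± 0.86 in the Host lines (adjusted p 0.00326), a call lost without EpiLC Host 3 (adjusted p 0.0534).

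Wnt9b, an inducer of kidney tubules, and Wnt16, a regulator of bone thickness, were scarce. Wnt9b had 0.749, 0.524 and 0.435 CPM in EpiLC DKO (46 counts in all), against no count in PGC-ESC DKO, which makes it at least 12.5-fold higher taking 3 counts over the whole group as its floor. It had 0.511 and 0.302 CPM in EpiLC Host (20 counts), against a single count in ESC Host, a ratio of 40.6 with a 95% counting interval of 6.5 to 1680. Both differences were called (adjusted p 0.000222 in the DKO lines and 0.000563 in the Host lines). Wnt16 had 0.629, 0.786 and 0.871 CPM in EpiLC DKO, against 0.0922, 0 and 0.129 CPM in PGC-ESC DKO, a log2 fold change of 3.00 ± 0.99 (adjusted p 0.019) that was not called without PGC-ESC DKO 1 (0.0551) or 2 (0.0618). In EpiLC Host it had 0.553 and 0.490 CPM, against 0.227, 0.0440, 0.124 and 0.249 CPM in ESC Host, without a call (1.53 ± 0.88, adjusted p 0.168). The difference between the conversions was 1.47 ± 1.37 with an adjusted p of 1, so no difference between DKO and Host lines was shown.

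Wnt3a, a canonical ligand that acts in the tail bud, fell. It had 0.210, 0.225 and 0 CPM in EpiLC DKO, against 0.369, 0.421 and 1.67 CPM in PGC-ESC DKO, and 0.128 and 0.151 CPM in EpiLC Host, against 1.78, 1.41, 0.618 and 0.995 CPM in ESC Host. The groups of each conversion did not overlap, although PGC-ESC DKO 3 stood apart from lines 1 and 2 of its group. The log2 fold change was -2.45 ± 0.73 in the DKO lines (adjusted p 0.00996) and -3.18 ± 0.82 in the Host lines (adjusted p 0.00456). Without PGC-ESC DKO 3 the first was -1.49 (adjusted p 0.11), and without EpiLC Host 3 the second had an adjusted p of 0.0511. Wnt6 had 0.723 and 0.8294 CPM in EpiLC Host, against 3.33, 6.51, 0.989 and 1.69 CPM in ESC Host, and fell there (-2.10 ± 0.65, adjusted p 0.0142). The groups did not overlap, but ESC Host 3 stood just above EpiLC Host 4, and against ESC Host 3 and 4 alone the value was -1.02 (adjusted p 0.17). With the cell line as a block it was -0.99 (adjusted p 0.0823), and without EpiLC Host 3 or 4 the adjusted p was 0.102 or 0.0784. In the DKO lines Wnt6 stood at 0.959, 1.72 and 1.87 CPM in EpiLC DKO, against 1.60, 2.46 and 3.28 CPM in PGC-ESC DKO (-0.88 ± 0.56, adjusted p 0.204); with the cell line as a block this value was -0.89 and passed the test.

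The ligand with the highest mean level per length in both parent groups was not called. Wnt5b, a ligand of the branch that does not use beta-catenin, had 3.18, 3.03 and 3.98 CPM in EpiLC DKO, against 5.01, 4.56 and 8.95 CPM in PGC-ESC DKO (-1.05 ± 0.60, adjusted p 0.163), and 3.19 and 4.45 CPM in EpiLC Host, against 5.34, 7.22, 8.07 and 1.09 CPM in ESC Host (-0.62 ± 0.64, adjusted p 0.461). EpiLC DKO and PGC-ESC DKO did not overlap, whereas ESC Host 4 lay below EpiLC Host. Of the other tested ligands, Wnt2b, Wnt5a, Wnt7a, Wnt7b, Wnt8b, Wnt10a and Wnt11 were not called in either conversion, with log2 fold changes between -1.16 and 0.83 in the DKO lines and between -0.98 and 0.75 in the Host lines. Of the untested genes, Wnt2 had 13 counts over EpiLC DKO, against 0 in PGC-ESC DKO, at least 3.54-fold higher by the same floor, and Wnt10b had 9 counts, against 0, at least 2.45-fold higher. In the Host lines Wnt2 had 9 counts over EpiLC Host, against 2 over ESC Host, and Wnt10b had 10, against 10. ESC Host 1 and 2, at 0.151 and 0.176 CPM of Wnt10b, lay above EpiLC DKO, at 0.112 to 0.124 CPM. Wnt1 did not exceed 0.044 CPM in any library.

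**Figure D2:**
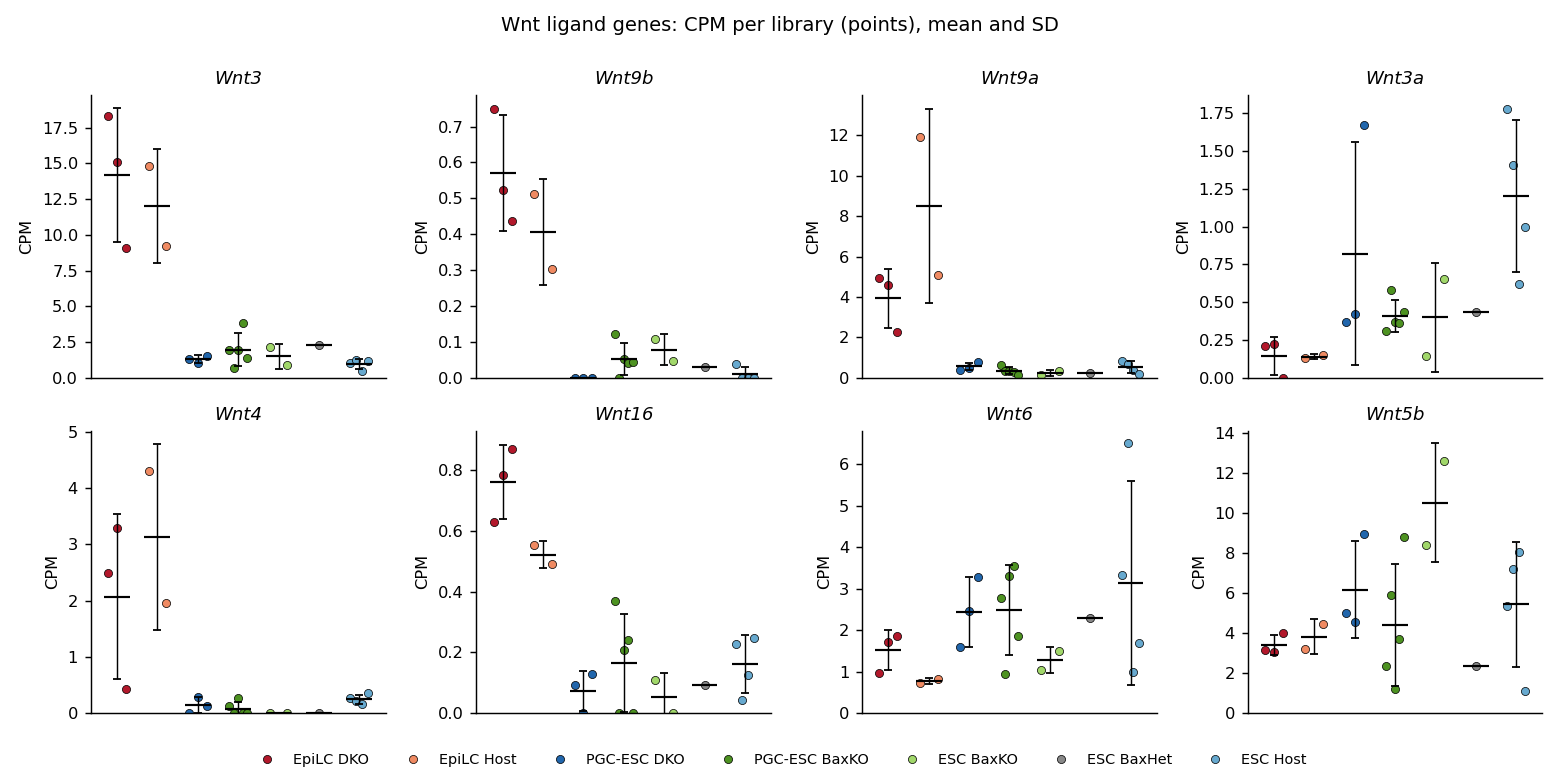
CPM of 8 Wnt ligands in every library by group (points), with the mean (bar) and SD. All 5 EpiLC libraries lie above all other libraries for Wnt3, Wnt4, Wnt9a, Wnt9b and Wnt16, and in the lower part of the range for Wnt3a.

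To compare levels between genes, CPM was divided by the length of a gene's merged exons in GENCODE M21. Of the 18 ligands analysed, Wnt3 ranked highest in EpiLC DKO at 4.61 ± 1.52 CPM per kb (SD, n = 3), ahead of Wnt5b at 1.28 ± 0.193 CPM per kb. In PGC-ESC DKO the order began with Wnt5b at 2.33 ± 0.909 CPM per kb and Wnt6 at 1.12 ± 0.384 CPM per kb, with Wnt3 at 0.425 ± 0.0802 CPM per kb. Wnt3, Wnt4 and Wnt9a together made up 62.9 ± 9.94% of the summed ligand level per kb in EpiLC DKO, against 12.3 ± 1.70% in PGC-ESC DKO. Their share was 66.2 ± 11.2% in EpiLC Host (n = 2), against 10.6 ± 5.46% in ESC Host (n = 4). The ranges of these shares did not overlap, the lowest EpiLC library being at 51.7% and the highest parent library at 18.3%. The summed ligand level was 9.75 ± 2.22 CPM per kb in EpiLC DKO, against 5.24 ± 1.81 CPM per kb in PGC-ESC DKO, and 10.6 ± 2.94 CPM per kb in EpiLC Host, against 5.64 ± 2.42 CPM per kb in ESC Host. These sums were not tested, and their ranges met in both conversions, at 7.21 to 11.4 CPM per kb in EpiLC DKO against 3.98 to 7.31 in PGC-ESC DKO, and 8.56 to 12.7 CPM per kb in EpiLC Host against 2.90 to 8.65 in ESC Host.

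The called ligands include 2 neighbouring pairs on mouse chromosome 11. Wnt9b and Wnt3 are transcribed away from each other with 24328 bases between them, and both rose. Wnt3a and Wnt9a are likewise divergent, with 16175 bases between them, and there Wnt3a fell while Wnt9a rose in both conversions. The 4 upstream sequences are shown because these genes moved together or apart from near-by starts. They are the bases before the RefSeq start on the gene's strand (RefSeq promoter table, build GRCm38.p6, 5′ to 3′), cut where the GENCODE gene begins; capitals mark a match to CTTTGAT or CTTTGAA, letters that TCF/LEF factors are known to bind, on either strand.
Wnt9b (chr11:103749822-103750071, minus strand): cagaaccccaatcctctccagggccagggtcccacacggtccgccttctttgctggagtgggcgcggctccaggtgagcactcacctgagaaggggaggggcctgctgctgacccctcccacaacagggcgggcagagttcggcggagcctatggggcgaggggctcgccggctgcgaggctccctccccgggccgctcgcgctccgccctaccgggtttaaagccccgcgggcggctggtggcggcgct
Wnt3 (chr11:103773925-103774149, plus strand): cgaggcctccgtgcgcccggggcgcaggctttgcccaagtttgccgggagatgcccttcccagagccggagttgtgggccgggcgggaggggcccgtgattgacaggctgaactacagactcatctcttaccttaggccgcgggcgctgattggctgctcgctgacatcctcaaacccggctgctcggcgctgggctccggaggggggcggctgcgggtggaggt
Wnt3a (chr11:59290753-59291001, minus strand): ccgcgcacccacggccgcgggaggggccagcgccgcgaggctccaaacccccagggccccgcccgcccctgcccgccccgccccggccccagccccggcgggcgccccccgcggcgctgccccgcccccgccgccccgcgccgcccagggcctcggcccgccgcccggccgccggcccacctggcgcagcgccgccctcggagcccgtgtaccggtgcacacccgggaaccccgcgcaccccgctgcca
Wnt9a (chr11:59306680-59306927, plus strand): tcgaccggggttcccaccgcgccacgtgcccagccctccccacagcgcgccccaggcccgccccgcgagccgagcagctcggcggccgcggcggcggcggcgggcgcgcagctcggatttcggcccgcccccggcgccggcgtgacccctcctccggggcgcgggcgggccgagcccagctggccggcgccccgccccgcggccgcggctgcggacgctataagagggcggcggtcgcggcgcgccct

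None of the 4 full windows of 250 bases held either motif. They were rich in G and C, at 72.0% for Wnt9b, 68.0% for Wnt3, 87.6% for Wnt3a and 84.4% for Wnt9a, where the median was 68.0% over the 29 windows of the 26 members found in the table and 52.4% over all 32851 windows. The motif stood in 3 of the 29 member windows (10.3%), those of Dkk1, Wnt11 and 1 of the 3 starts of Wnt5b, and in 7.48% of all windows. In Dkk1, whose own levels are given with the inhibitors, CTTTGAA began 117 bases before the RefSeq start, in a stretch that the GENCODE gene counts as transcribed.
Dkk1 (chr19:30549595-30549624, minus strand): tcctcccaaagCTTTGAAatcccatcccgg
A match describes letters in a window and not a bound site.

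All 10 Frizzled genes were called in both conversions. Fzd1, Fzd2, Fzd3, Fzd4, Fzd6, Fzd7, Fzd8 and Fzd9 rose, by 1.44 to 2.99 on the log2 scale in the DKO lines and by 1.25 to 3.47 in the Host lines, while Fzd5 and Fzd10 fell. In GENCODE M21 (build GRCm38) the 4 genes with the largest shares lie at chr1:59482424-59486955 (Fzd7, plus strand), chr11:102604396-102608058 (Fzd2, plus), chr5:128600844-128604093 (Fzd10, plus) and chr1:64730558-64737751 (Fzd5, minus). Fzd7, a receptor known from work on human pluripotent cells, had 198, 179 and 199 CPM in EpiLC DKO, against 47.7, 29.9 and 44.9 CPM in PGC-ESC DKO, and 123.2 and 169 CPM in EpiLC Host, against 30.3, 40.4, 44.99 and 25.1 CPM in ESC Host. No other library exceeded 47.7 CPM, so EpiLC libraries stood well clear of the rest. The log2 fold change was 2.04 ± 0.31 in the DKO lines (adjusted p 4.75e-05) and 1.92 ± 0.31 in the Host lines (adjusted p 7.71e-05).

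Fzd2 and Fzd1 are the closest relatives of Fzd7. Fzd2 had 74.5, 71.4 and 63.6 CPM in EpiLC DKO, against 8.89, 5.68 and 8.37 CPM in PGC-ESC DKO, and 90.5 and 73.1 CPM in EpiLC Host, against 6.93, 7.74, 6.21 and 6.02 CPM in ESC Host. It rose in both conversions (2.99 ± 0.32 in the DKO lines, adjusted p 8.98e-07, and 3.47 ± 0.31 in the Host lines, adjusted p 1.12e-07). Fzd1 had 8.66, 6.47 and 6.59 CPM in EpiLC DKO, against 1.199, 1.05 and 2.38 CPM in PGC-ESC DKO, and 6.08 and 6.30 CPM in EpiLC Host, against 1.14, 0.880, 1.51 and 0.448 CPM in ESC Host (2.05 ± 0.45 in the DKO lines, adjusted p 0.00107, and 2.48 ± 0.44 in the Host lines, adjusted p 0.000189). For both genes the lowest EpiLC library lay above the highest of all other libraries.

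Fzd3 and Fzd6, receptors known for axon guidance and tissue polarity, rose together. Fzd3 had 22.6, 22.1 and 16.3 CPM in EpiLC DKO, against 1.72, 1.68 and 3.60 CPM in PGC-ESC DKO, and 28.2 and 24.7 CPM in EpiLC Host, against 7.53, 5.10, 3.19 and 1.99 CPM in ESC Host (2.95 ± 0.43 in the DKO lines, adjusted p 2.54e-05, and 2.46 ± 0.40 in the Host lines, adjusted p 7.83e-05). Fzd6 had 22.3, 21.7 and 10.9 CPM in EpiLC DKO, against 2.77, 2.81 and 4.57 CPM in PGC-ESC DKO, and 17.3 and 21.6 CPM in EpiLC Host, against 6.21, 5.24, 2.35 and 3.13 CPM in ESC Host (2.25 ± 0.34 in the DKO lines, adjusted p 3.59e-05, and 2.08 ± 0.33 in the Host lines, adjusted p 5.74e-05). EpiLC DKO 3 was the lowest EpiLC library for both, and still above every ESC and PGC-ESC library.

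Fzd4, the receptor of the retinal ligand Norrin, had 6.02, 5.46 and 5.47 CPM in EpiLC DKO, against 1.75, 1.19 and 2.25 CPM in PGC-ESC DKO, and 7.53 and 4.56 CPM in EpiLC Host, against 2.80, 2.51, 2.07 and 0.547 CPM in ESC Host. It rose in both (1.51 ± 0.44 in the DKO lines, adjusted p 0.00856, and 1.49 ± 0.43 in the Host lines, adjusted p 0.00894), a call lost in the Host lines without EpiLC Host 3, the higher of that pair (1.09, adjusted p 0.146). Fzd9, a receptor of the Fzd10 subgroup, had 13.5, 11.97 and 10.7 CPM in EpiLC DKO, against 2.77, 3.16 and 5.86 CPM in PGC-ESC DKO (1.44 ± 0.42, adjusted p 0.00958), and 10.4 and 11.4 CPM in EpiLC Host, against 5.19, 3.52, 4.27 and 3.68 CPM in ESC Host (1.25 ± 0.42, adjusted p 0.0232). Its call in the Host lines was lost without EpiLC Host 3 (0.077), EpiLC Host 4 (0.109) or ESC Host 2 (0.0534), and against ESC Host 3 and 4 alone (adjusted p 0.075). For both genes all 5 EpiLC libraries lay above all other libraries.

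The closely related Fzd5 and Fzd8 moved in opposite directions. Fzd5, needed for the mouse yolk sac vessels, had 27.2, 26.1 and 20.9 CPM in EpiLC DKO, against 101, 69.8 and 118 CPM in PGC-ESC DKO, and 24.7 and 27.6 CPM in EpiLC Host, against 129, 158, 112 and 67.4 CPM in ESC Host. It fell in both (-2.15 ± 0.29 in the DKO lines, adjusted p 1.22e-05, and -2.28 ± 0.33 in the Host lines, adjusted p 2.92e-05). Fzd8 had 14.1, 13.4 and 10.6 CPM in EpiLC DKO, against 3.35, 2.03 and 4.12 CPM in PGC-ESC DKO, and 10.4 and 10.9 CPM in EpiLC Host, against 5.64, 2.24, 1.95 and 3.73 CPM in ESC Host, and rose in both (1.81 ± 0.33 in the DKO lines, adjusted p 0.000248, and 1.51 ± 0.33 in the Host lines, adjusted p 0.00116). Unlike Fzd5, Fzd8 in EpiLC libraries overlapped the PGC-ESC BaxKO lines, which stood at 6.66 to 10.9 CPM. Fzd10 had 36.1, 33.5 and 22.5 CPM in EpiLC DKO, against 71.5, 52.5 and 92.8 CPM in PGC-ESC DKO, and 26.8 and 29.5 CPM in EpiLC Host, against 113, 95.2, 75.4 and 46.15 CPM in ESC Host. It fell in both (-1.42 ± 0.27 in the DKO lines, adjusted p 0.000292, and -1.67 ± 0.30 in the Host lines, adjusted p 0.000221), and its highest EpiLC library lay below its lowest ESC or PGC-ESC library, ESC Host 4 at 46.15 CPM.

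**Figure D3:**
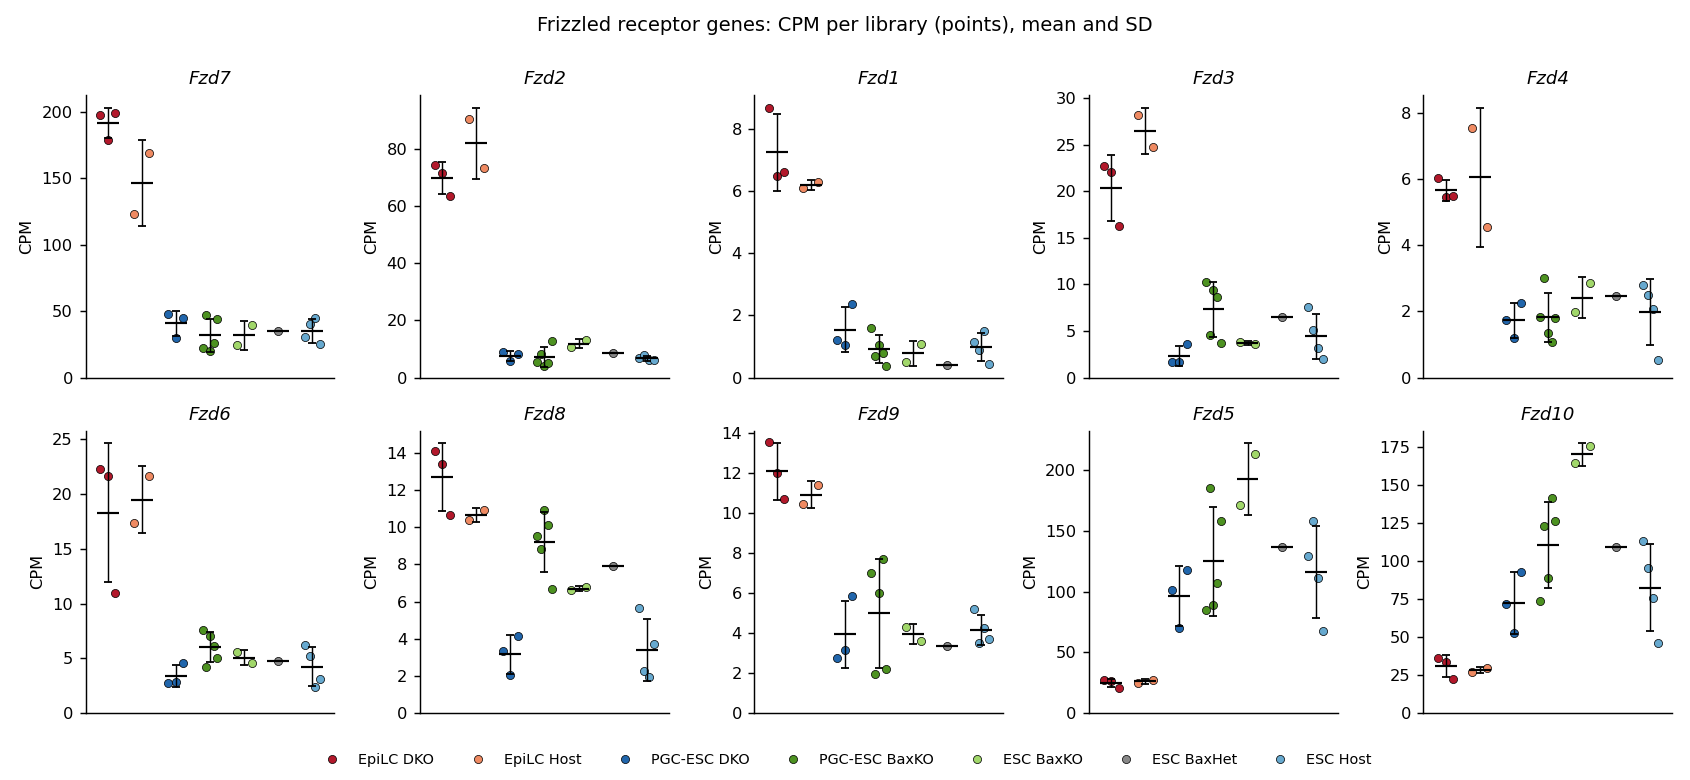
CPM of the 10 Frizzled genes in every library by group (points), with the mean (bar) and SD; each panel has its own axis from 0. The 5 EpiLC libraries are the highest in every panel except Fzd5 and Fzd10, where they are the lowest, and Fzd8, where PGC-ESC BaxKO lines reach them.

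Per length, the leading Frizzled genes changed places. Fzd7 (42.3 ± 2.50 CPM per kb) and Fzd2 (19.1 ± 1.52 CPM per kb) led in EpiLC DKO, whereas Fzd10 (22.2 ± 6.20 CPM per kb) and Fzd5 (13.9 ± 3.54 CPM per kb) led in PGC-ESC DKO. Fzd7 and Fzd2 together made up 68.6 ± 4.10% of the summed Frizzled level per kb in EpiLC DKO, against 21.9 ± 2.65% in PGC-ESC DKO, and 66.5 ± 0.415% in EpiLC Host, against 17.8 ± 4.10% in ESC Host. Fzd5 and Fzd10 together made up 14.4 ± 2.20% in EpiLC DKO, against 70.8 ± 1.30% in PGC-ESC DKO, and 15.1 ± 0.115% in EpiLC Host, against 74.6 ± 4.38% in ESC Host. The same pair made up 77.1 ± 3.60% in PGC-ESC BaxKO (n = 5) and 84.3 ± 1.25% in ESC BaxKO (n = 2). The ranges of EpiLC and parent libraries were far apart for both pairs.

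**Figure D4:**
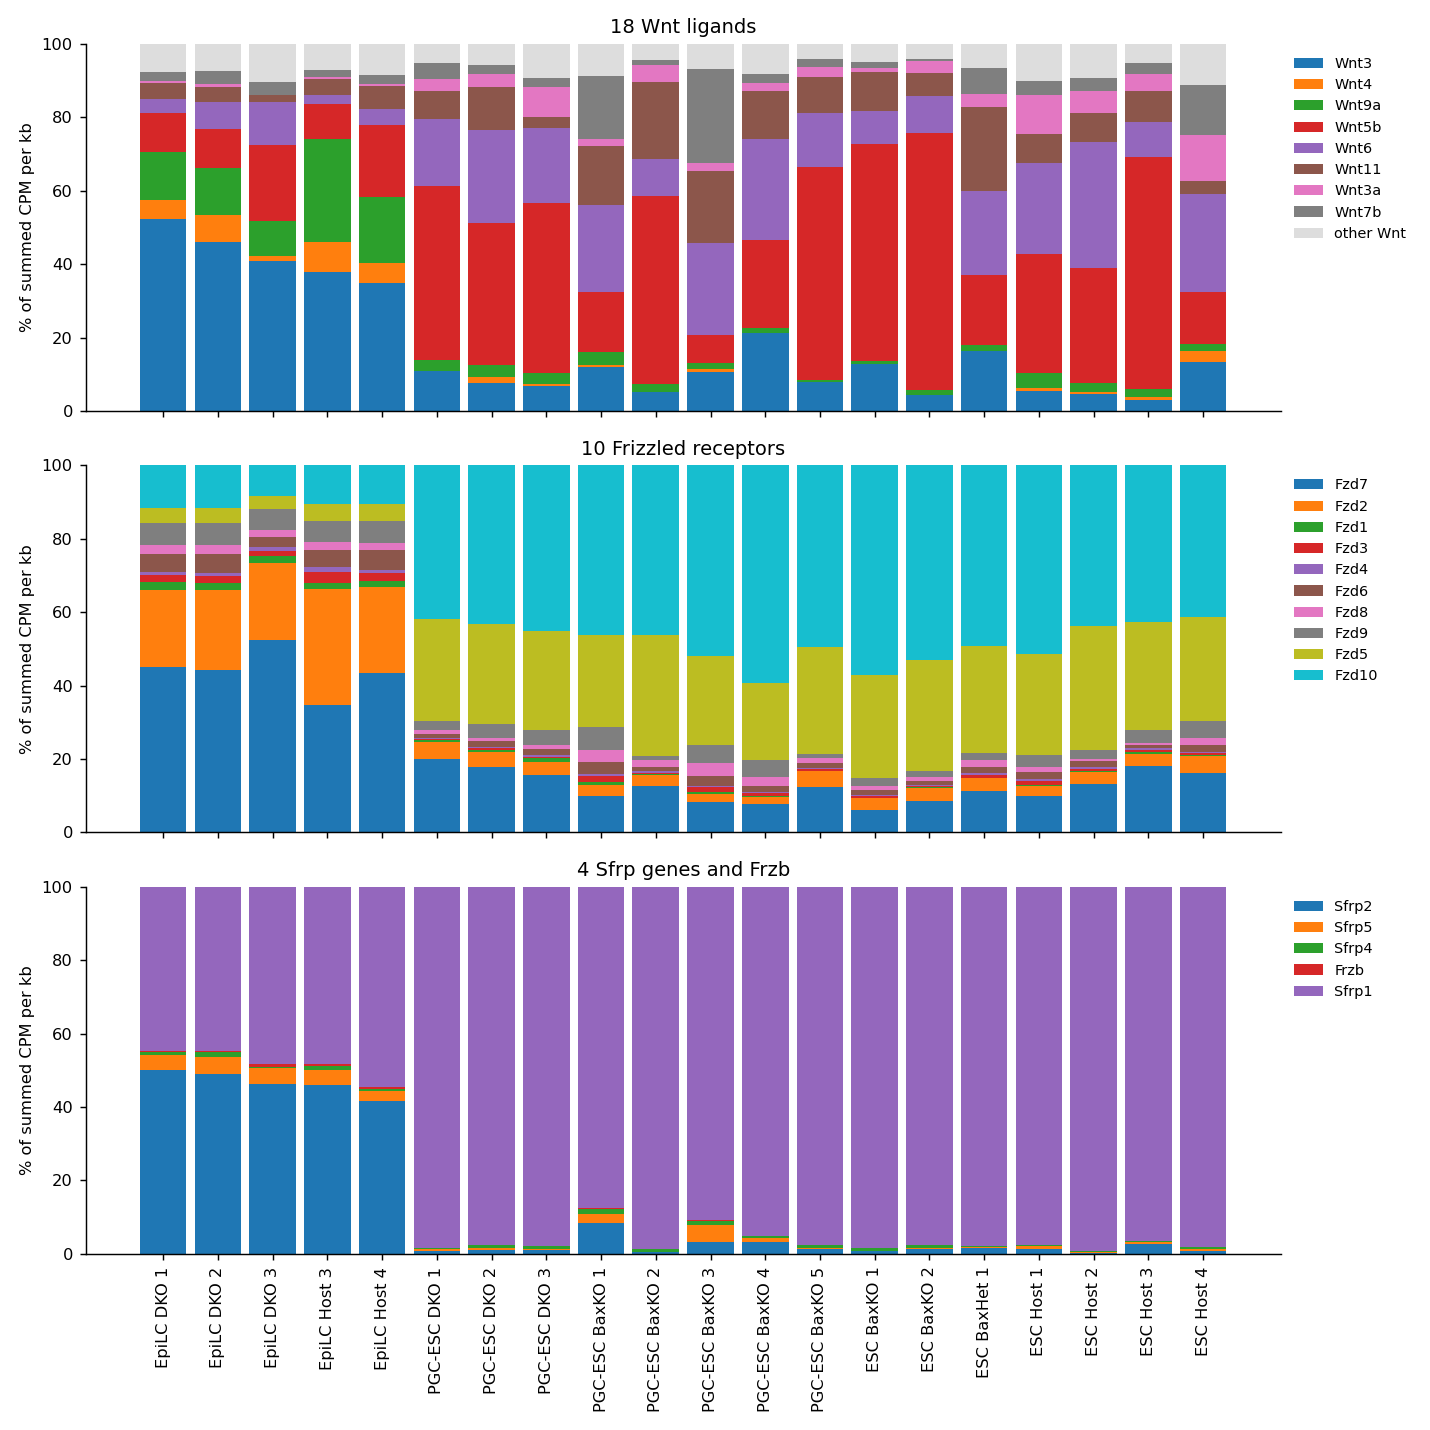
Share of each gene in the summed CPM per kb of the ligands (top), the Frizzled receptors (middle) and the Sfrp genes with Frzb (bottom), 1 bar per library. In the EpiLC libraries Wnt3 leads the ligands and Fzd7 with Fzd2 the receptors, while Sfrp2 stands beside Sfrp1; Fzd10 with Fzd5, and Sfrp1, take most of the bars of all other libraries.

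Of the secreted Frizzled-related genes, Sfrp1 fell and Sfrp2, Sfrp5 and Frzb rose in both conversions, so that Sfrp1 no longer stood alone. Sfrp1 (chr8:23411502-23449632, plus strand, GRCm38) had 71.1, 63.8 and 52.1 CPM in EpiLC DKO, against 346, 245 and 282 CPM in PGC-ESC DKO, and 83.8 and 97.5 CPM in EpiLC Host, against 361, 674, 276 and 229 CPM in ESC Host. The groups did not overlap, and ESC Host 2 was the highest library by far. Sfrp1 fell in both conversions (-2.42 ± 0.38 in the DKO lines, adjusted p 4.84e-05, and -2.20 ± 0.42 in the Host lines, adjusted p 0.000409). Sfrp2, which acts with Sfrp1 and Sfrp5 in mouse trunk elongation and lies at chr3:83766321-83774316 (plus strand), had 39.3, 34.4 and 24.5 CPM in EpiLC DKO, against 1.57, 1.19 and 1.35 CPM in PGC-ESC DKO, and 39.5 and 36.5 CPM in EpiLC Host, against 2.57, 1.06, 3.77 and 0.995 CPM in ESC Host. The highest ESC or PGC-ESC library was PGC-ESC BaxKO 1 at 6.63 CPM. Sfrp2 rose in both (4.35 ± 0.60 in the DKO lines, adjusted p 1.54e-05, and 4.02 ± 0.54 in the Host lines, adjusted p 1.22e-05).

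Sfrp5 had 2.76, 2.84 and 2.05 CPM in EpiLC DKO, against 0.646, 0.631 and 0.515 CPM in PGC-ESC DKO, and 3.11 and 2.11 CPM in EpiLC Host, against 1.10, 0.528, 0.680 and 0.547 CPM in ESC Host. Neither pair of groups overlapped. Its rises (1.88 ± 0.67 in the DKO lines, adjusted p 0.0279, and 1.72 ± 0.64 in the Host lines, adjusted p 0.0372) depended on single libraries: leaving out any 1 of 5 libraries in the DKO lines (EpiLC DKO 1 or 2, or any PGC-ESC DKO line) or any of 5 in the Host lines (either EpiLC line, or ESC Host 2, 3 or 4) gave adjusted p values of 0.0601 to 0.0794 in the DKO lines and 0.0642 to 0.21 in the Host lines. Frzb, an inhibitor first known from cartilage, had 0.359, 0.374 and 0.622 CPM in EpiLC DKO (32 counts), against no count in PGC-ESC DKO, at least 8.72-fold higher by the floor of 3 counts over the group (adjusted p 0.00379). It had 0.979 and 0.566 CPM in EpiLC Host (38 counts), against 2 counts in ESC Host, a ratio of 38.6 with a 95% counting interval of 9.97 to 330.0 (adjusted p 0.00114). Sfrp4 was not called (-0.74 ± 0.52 in the DKO lines, adjusted p 0.257, and -0.07 ± 0.55 in the Host lines, adjusted p 0.926).

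By length, Sfrp1 made up 45.9 ± 2.07% of the summed level of the 5 genes in EpiLC DKO, against 97.9 ± 0.382% in PGC-ESC DKO, and 51.4 ± 4.57% in EpiLC Host, against 97.9 ± 1.06% in ESC Host. Sfrp2 took most of the remainder, at 48.4 ± 2.07% in EpiLC DKO, against 0.941 ± 0.0317% in PGC-ESC DKO, and at 43.8 ± 3.22% in EpiLC Host, against 1.32 ± 1.0% in ESC Host. The summed level of the 5 genes was 31.2 ± 5.99 CPM per kb in EpiLC DKO, against 68.0 ± 11.7 CPM per kb in PGC-ESC DKO, without overlap between libraries. It was 40.3 ± 0.719 CPM per kb in EpiLC Host, against 89.7 ± 45.7 CPM per kb in ESC Host. In PGC-ESC BaxKO it ran from 34.5 to 90.4 CPM per kb, overlapping EpiLC DKO (24.7 to 36.4). The summed Frizzled level ran the other way, at 89.7 ± 6.57 CPM per kb in EpiLC DKO, against 51.0 ± 13 CPM per kb in PGC-ESC DKO, but it was 95.2 ± 9.39 CPM per kb in ESC BaxKO. These sums were not tested.

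Of the Dickkopf genes only Dkk1 was called, and it fell. It had 0.120, 0.225 and 0.249 CPM in EpiLC DKO, against 0.861, 1.89 and 3.60 CPM in PGC-ESC DKO, and 0.128 and 0 CPM in EpiLC Host, against 5.41, 1.14, 1.18 and 0.746 CPM in ESC Host. Every EpiLC library lay below every other library, and ESC Host 1 was the highest. The log2 fold change was -3.61 ± 0.81 in the DKO lines (adjusted p 0.00145) and -5.11 ± 1.09 in the Host lines (adjusted p 0.000979); the 3 counts of EpiLC Host all lay in line 3. The Host value was -4.10 without EpiLC Host 4 and -4.12 without ESC Host 1. Without EpiLC Host 3 it was -8.72, a fit against a library with no count and so no bound, and the call held each time (adjusted p up to 0.0234). Dkk3, a divergent relative, had 5.24, 6.29 and 3.55 CPM in EpiLC DKO, against 3.69, 2.67 and 3.41 CPM in PGC-ESC DKO, and 5.19 and 5.77 CPM in EpiLC Host, against 4.505, 3.56, 2.23 and 1.94 CPM in ESC Host. It was not called (0.42 ± 0.39 in the DKO lines, adjusted p 0.396, and 0.72 ± 0.40 in the Host lines, adjusted p 0.158), and overlapped between EpiLC DKO and PGC-ESC DKO, but passed in the Host lines with the cell line as a block (1.15). Dkk3 made up 91.2% of the summed Dickkopf level per kb in EpiLC DKO, against 53.9% in PGC-ESC DKO. Dkk4, which did not exceed 0.451 CPM, was not called, and the untested Dkk2 had 15 counts over EpiLC DKO, against 0 in PGC-ESC DKO, at least 4.09-fold higher.

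The DKO and Host conversions were then compared with each other. No member differed between them by the interaction contrast with edgeR, against 0.00611% of all genes, and none reached an unadjusted p under 0.05 or was called by DESeq2. The difference, DKO minus Host, was 0.12 ± 0.44 for Fzd7, with a 95% interval of -0.84 to 1.08, 0.12 ± 0.41 for Fzd5 (-0.76 to 1.01) and -0.23 ± 0.52 for Sfrp1 (-1.35 to 0.89). The intervals of all 33 tested members reached beyond a 2-fold difference, so they do not show that the conversions were alike. EpiLC DKO against EpiLC Host likewise gave 0 calls (0.0428% of all genes), with 1 member at an unadjusted p under 0.05, Wnt9a at -1.10 ± 0.50 (adjusted p 1), and 0 by DESeq2. For 4 of the 33 members the 95% interval lay within a 2-fold difference. Origin, genotype and reporter differ together between these EpiLC groups.

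No member was called between PGC-ESC and ESC lines of the same strain label. Within the C57Bl6J label only the PGC-ESC lines lack Puma and Noxa, so origin and genotype change together there. The reporter that differs between the EpiLCs made from these lines cannot be told apart from them either. PGC-ESC DKO against ESC Host gave 0 calls (0.116% of all genes), with 1 member, Fzd3, at an unadjusted p under 0.05 and 0 by DESeq2, and 9 of 33 intervals lay within a 2-fold difference. Fzd7 differed by 0.29 ± 0.29 with a 95% interval of -0.33 to 0.90, Fzd10 by -0.11 ± 0.24 (-0.63 to 0.42) and Sfrp1 by -0.30 ± 0.33 (-1.03 to 0.42) on the log2 scale. PGC-ESC BaxKO against ESC BaxKO also gave 0 calls (0.0367% of all genes) and 0 by DESeq2, with 8 members at an unadjusted p under 0.05, a level that 10% of all genes reached. Of the 8, Fzd3, Sfrp5, Wnt7b and Wnt8b were higher in PGC-ESC BaxKO, and Fzd2 (-0.73 ± 0.30), Fzd5 (-0.64 ± 0.28), Fzd10 (-0.64 ± 0.26) and Wnt5b (-1.26 ± 0.57) were lower. Sfrp5 had 1.66, 0.2445, 3.03, 1.37 and 0.389 CPM in PGC-ESC BaxKO lines, against 0.0722 and 0.327 CPM in ESC BaxKO (2.72 ± 0.84, adjusted p 0.463). Wnt7b, which overlaps the antisense gene AU022754 in the annotation, had 4.48, 0.275, 7.47, 0.646 and 0.649 CPM in PGC-ESC BaxKO, against 0.397 and 0.140 CPM in ESC BaxKO (3.21 ± 1.08, adjusted p 0.463). The 2 intervals of 33 that lay within a 2-fold difference leave most members undecided there. The lines of this comparison also differed in their X- and Y-linked levels, given below. Of the 8 members, Fzd2, Fzd3, Fzd5, Sfrp5, Wnt5b and Wnt8b also separated PGC-ESC BaxKO lines 1, 3 and 4 from lines 2 and 5. Fzd10 and Wnt7b did not. Over all genes, lines 1, 3 and 4 lay above lines 2 and 5 for 26.1% and below them for 23.6%. Wnt8b had 1 count in line 1, as in lines 2 and 5, so its place there rests on library totals. The part of the X- and Y-linked levels in this comparison was not tested.

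In the comparisons that cross the strain labels, 3 members were called in PGC-ESC BaxKO against ESC Host, where 17.3% of all genes were called, 7.94% higher and 9.37% lower. Dkk3 had 13.4, 8.25, 10.97, 14.4 and 3.76 CPM in PGC-ESC BaxKO, against 4.505, 3.56, 2.23 and 1.94 CPM in ESC Host (1.65 ± 0.33, adjusted p 0.00333), and PGC-ESC BaxKO 5 overlapped ESC Host. Fzd8 had 9.51, 8.83, 10.9, 10.1 and 6.66 CPM in PGC-ESC BaxKO, against 5.64, 2.24, 1.95 and 3.73 CPM in ESC Host, with no overlap (1.34 ± 0.27, adjusted p 0.00356). Wnt3a was lower, with 0.307, 0.581, 0.366, 0.363 and 0.432 CPM in PGC-ESC BaxKO, against 1.78, 1.41, 0.618 and 0.995 CPM in ESC Host (-1.58 ± 0.52, adjusted p 0.0434), a call lost without PGC-ESC BaxKO 1, 3, 4 or 5 or without ESC Host 1, 2 or 4 (adjusted p 0.0551 to 0.0919), and with the replicate number as a block (0.0751). Dkk3 and Fzd8 stayed called under all 16 alternatives. In ESC BaxKO against ESC Host only Fzd10 was called, where 5.02% of all genes were: it had 164 and 176 CPM in ESC BaxKO, against 113, 95.2, 75.4 and 46.15 CPM in ESC Host (1.00 ± 0.27, adjusted p 0.0382). Without overlap between these groups, the call was still lost without either ESC BaxKO line (0.153 without line 1, 0.243 without line 2) and without ESC Host 3 (0.0821) or 4 (0.0755).

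Within PGC-ESC BaxKO, some members split the lines the same way as genes of the X chromosome and others did not. Lines 1, 3 and 4 all lay above lines 2 and 5 for 15 of the 33 tested members (45.5%), against 26.1% of all genes. They all lay below them for 7 (21.2%), against 23.6% of all genes. For the other 11, Fzd10 and Dkk1 among them, the lines overlapped. Some of the 15 rest on few counts. Wnt8b had 1, 6 and 2 counts in lines 1, 3 and 4, against 1 and 1 in lines 2 and 5. Wnt7a had 6, 5 and 6 counts, against 5 and 4, and Frzb had 3, 4 and 2, against 0 and 0. The median level of 345 X-linked genes minus that of 9555 autosomal genes was 0.77, 0.74 and 0.70 on the log2 scale in lines 1, 3 and 4, and -0.16 and -0.22 in lines 2 and 5. The 8 Y-linked genes summed to 226 and 218 CPM in lines 2 and 5 and to 0 in lines 1, 3 and 4. ESC BaxKO 1 and 2 stood with lines 2 and 5, at -0.16 and -0.25 on the X-linked scale and 259 and 200 CPM of Y-linked genes. In lines 1, 3 and 4 Sfrp1 stood at 140.1, 137 and 254 CPM, against 389.8 and 305 CPM in lines 2 and 5. Fzd5 was at 85.2, 88.8 and 107 CPM, against 185 and 158 CPM, and Wnt5b at 2.33, 1.202 and 3.71 CPM, against 5.90 and 8.82 CPM. The reverse held for Sfrp5, at 1.66, 3.03 and 1.37 CPM in lines 1, 3 and 4, against 0.2445 and 0.389 CPM in lines 2 and 5, and for Dkk3, at 13.4, 10.97 and 14.4 CPM, against 8.25 and 3.76 CPM. Porcn, the X-linked enzyme that attaches the lipid to Wnts, was at 32.8, 31.0 and 23.6 CPM in lines 1, 3 and 4, against 3.64 and 5.84 CPM in lines 2 and 5. Outside this group, ESC Host 1, at 0.04 on the X-linked scale, had 73.7 CPM of Porcn. ESC BaxHet, at 0.26 on that scale and with no Y-linked count, had 359 CPM of Sfrp1 and 137 CPM of Fzd5. ESC Host 4, at -0.28, had 67.4 CPM of Fzd5 and 1.09 CPM of Wnt5b. These CPM are not TMM-scaled, and ESC Host 4 had the lowest TMM factor (0.8436) and the most Rn45s (51920 CPM). Its rank against PGC-ESC BaxKO 1, 3 and 4 is therefore not read. The lines were set side by side after their values were seen, so no test was made and the part of the X-linked level in these differences was not tested.

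**Figure D5:**
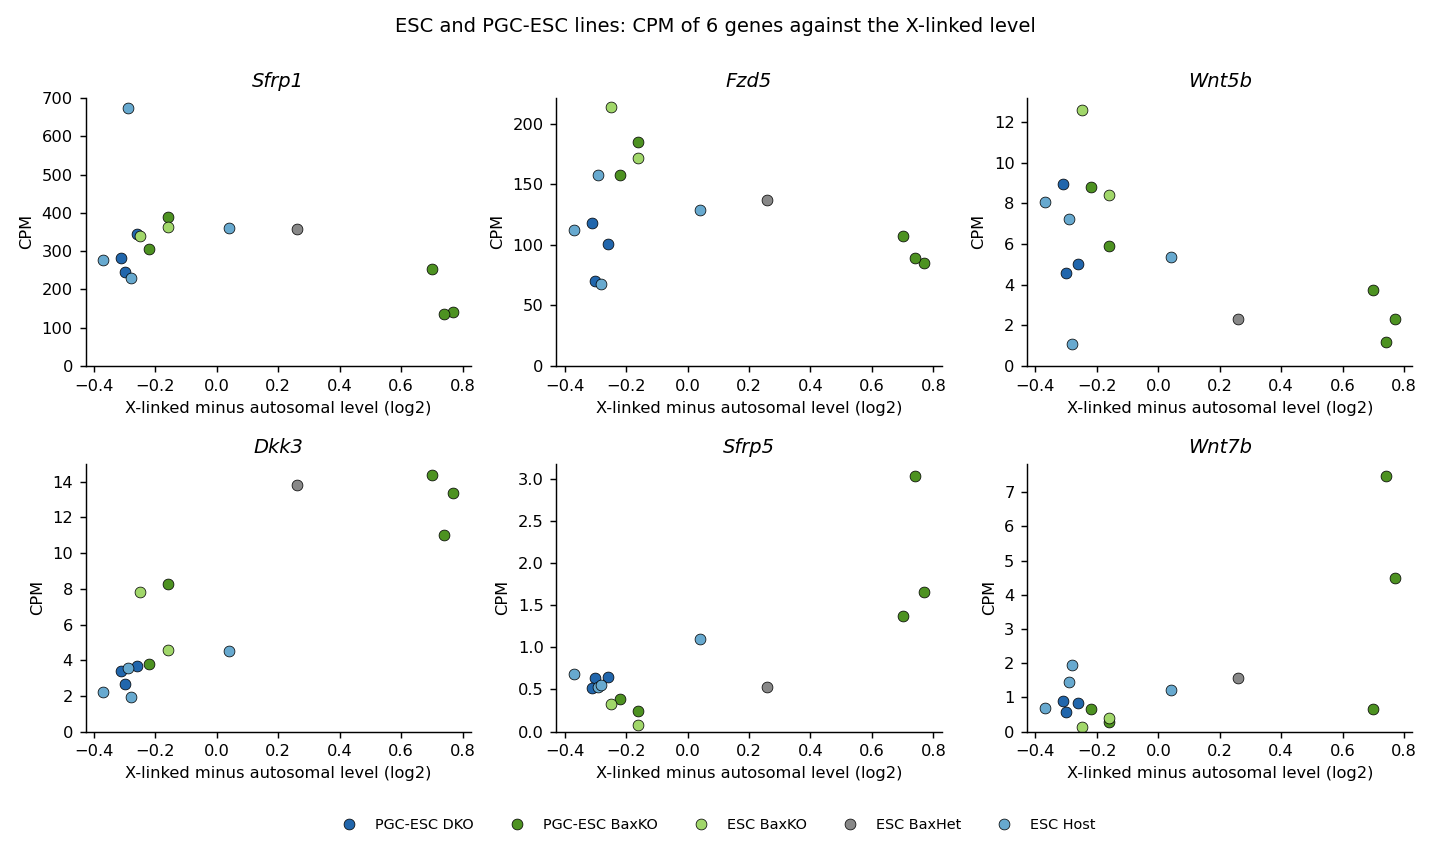
CPM of 6 genes in the 15 ESC and PGC-ESC lines (vertical axis, from 0) against the median X-linked minus median autosomal level in log2 units (horizontal axis), coloured by group. PGC-ESC BaxKO 1, 3 and 4 lie at 0.70 to 0.77 on the right. Sfrp1, Fzd5 and Wnt5b are lower there, and Dkk3 and Sfrp5 higher, than in PGC-ESC BaxKO 2 and 5, while Wnt7b is high in lines 1 and 3 only. Lines of the other groups lie at -0.37 to 0.26, so none reaches that level. Among them ESC Host 4, at -0.28, has 67.4 CPM of Fzd5 and 1.09 CPM of Wnt5b. The part of the X-linked level was not tested.

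The rest of the pathway was read from a list of 62 further genes, of which 59 were tested. In EpiLC DKO against PGC-ESC DKO 16 rose and 14 fell, and in EpiLC Host against ESC Host 17 rose and 14 fell, shares of 50.8% and 52.5% that lie close to those of all genes. Direct feedback and target genes split: 3 rose and 4 fell of 9 in the DKO lines, and 4 rose and 3 fell in the Host lines. Axin2, a feedback inhibitor commonly read as a measure of beta-catenin activity, was at 14.6 ± 1.55 CPM in EpiLC DKO, against 86.2 ± 34.2 CPM in PGC-ESC DKO (SD), and fell in both conversions (-2.75 ± 0.35 in the DKO lines, adjusted p 6.74e-06, and -2.55 ± 0.40 in the Host lines, adjusted p 5.9e-05). Sp5, a target and transcription factor, was at 1.03 ± 0.442 CPM in EpiLC DKO, against 80.9 ± 25.5 CPM in PGC-ESC DKO, and fell (-6.41 ± 0.42 in the DKO lines, adjusted p 3.02e-09, and -6.47 ± 0.51 in the Host lines, adjusted p 2.96e-08). Cdx1, a posterior homeobox target, was at 1.33 ± 0.509 CPM in EpiLC DKO, against 71.0 ± 45.1 CPM in PGC-ESC DKO, and fell (-5.86 ± 0.66 in the DKO lines, adjusted p 1.43e-06, and -5.58 ± 0.76 in the Host lines, adjusted p 1.3e-05). Nkd2, an inhibitor that binds Dishevelled, rose to 8.22 ± 0.916 CPM in EpiLC DKO, against 0.390 ± 0.0531 CPM in PGC-ESC DKO (4.19 ± 0.38 in the DKO lines, adjusted p 1.34e-07, and 3.86 ± 0.33 in the Host lines, adjusted p 8.83e-08). Named after their values were seen, its relative Nkd1 and the growth regulator Myc also rose. Nkd1 was at 10.78 ± 2.42 CPM in EpiLC DKO, against 1.58 ± 0.546 CPM in PGC-ESC DKO (2.60 ± 0.37 in the DKO lines, adjusted p 2.15e-05, and 2.19 ± 0.35 in the Host lines, adjusted p 6.93e-05). Myc was at 88.8 ± 7.92 CPM in EpiLC DKO, against 10.6 ± 5.40 CPM in PGC-ESC DKO (2.89 ± 0.38 in the DKO lines, adjusted p 8.59e-06, and 3.23 ± 0.36 in the Host lines, adjusted p 1.65e-06).

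Of the other secreted or membrane inhibitors, Notum, which removes the lipid from Wnts, was at 1.30 ± 0.436 CPM in EpiLC DKO, against 133 ± 22.8 CPM in PGC-ESC DKO, and fell (-6.92 ± 0.38 in the DKO lines, adjusted p 3.92e-10, and -7.0 ± 0.46 in the Host lines, adjusted p 3.4e-09), while the Dkk1 partner Kremen1 rose (1.11 ± 0.20 in the DKO lines, adjusted p 0.000193, and 1.03 ± 0.20 in the Host lines, adjusted p 0.000437). Genes that act on receptor turnover rose in 4 of 8 cases in each conversion and fell in none. That share called, 50%, was close to the 47.6% (DKO lines) and 44% (Host lines) of all genes called. Lgr4, a receptor for R-spondins, was at 213 ± 36.2 CPM in EpiLC DKO, against 48.5 ± 9.18 CPM in PGC-ESC DKO (1.93 ± 0.21 in the DKO lines, adjusted p 1.22e-06, and 2.17 ± 0.21 in the Host lines, adjusted p 2.96e-07), and the ligand Rspo1 at 12.8 ± 1.82 CPM in EpiLC DKO, against 0.509 ± 0.119 CPM in PGC-ESC DKO (4.46 ± 0.44 in the DKO lines, adjusted p 3.38e-07, and 3.38 ± 0.38 in the Host lines, adjusted p 1.61e-06). Lgr5, a related receptor, was at 0.523 ± 0.155 CPM in EpiLC DKO and had no count in PGC-ESC DKO (adjusted p 0.000346). Of the secretion genes, Porcn fell (-2.53 ± 0.80 in the DKO lines, adjusted p 0.0152, and -3.94 ± 0.99 in the Host lines, adjusted p 0.00356), and Wls, which carries Wnts to the surface, fell in the DKO lines (-1.12 ± 0.39, adjusted p 0.0251) but was not called in the Host lines (-0.76 ± 0.42, adjusted p 0.151).

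Of the 6 co-receptors and other receptors 3 were called in the DKO lines and 2 in the Host lines. Lrp5 (0.66 ± 0.24, adjusted p 0.0308) and Lrp6 (0.48 ± 0.18, adjusted p 0.0381) rose in the DKO lines and were not called in the Host lines (0.51 ± 0.25, adjusted p 0.106, and 0.34 ± 0.19, adjusted p 0.163). Tcf7l1, the TCF factor that represses in ESCs, fell in both (-0.63 ± 0.20 in the DKO lines, adjusted p 0.0162, and -0.84 ± 0.22 in the Host lines, adjusted p 0.00534). Dvl1, which relays the signal inside the cell, rose (0.84 ± 0.17 in the DKO lines, adjusted p 0.000607, and 0.72 ± 0.18 in the Host lines, adjusted p 0.00281). Among 7 planar polarity genes 2 rose and 2 fell in the DKO lines, and 2 rose and 3 fell in the Host lines. Vangl1 (-1.97 ± 0.14 in the DKO lines, adjusted p 1.01e-08, and -2.23 ± 0.16 in the Host lines, adjusted p 1.3e-08) and Prickle2 (-1.78 ± 0.27 in the DKO lines, adjusted p 4.03e-05, and -1.21 ± 0.29 in the Host lines, adjusted p 0.00279) fell, and Celsr2 rose (2.82 ± 0.24 in the DKO lines, adjusted p 6.46e-08, and 2.10 ± 0.23 in the Host lines, adjusted p 1.04e-06). Prickle1, named like Celsr1 after its values were seen, rose (3.38 ± 0.53 in the DKO lines, adjusted p 5.83e-05, and 2.96 ± 0.50 in the Host lines, adjusted p 0.000115), and Celsr1 fell in the Host lines (-0.60 ± 0.21, adjusted p 0.0263).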

How the data were processed

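Gene-level read counts of 20 poly(A) libraries were deposited in 1 table; per the submitters' processing notes, STAR 2.7.7a and mouse build mm10 were used. The sources used here do not give the counting tool, its strand setting or the annotation. Fzd5, Fzd6, Sfrp2, Wnt5a, Wnt7b and Wnt11 overlap a gene on the other strand in GENCODE M21, and without strand the reads of both cannot be told apart; of those partners the table has a row for AU022754 alone, which overlaps Wnt7b.

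Testing used the quasi-likelihood F test of edgeR 4.0.16 (R 4.3.3): TMM scaling, the default filter (16363 of 21361 genes kept), 1 coefficient for each of 7 groups over all 20 libraries (13 residual degrees of freedom) and Benjamini-Hochberg adjustment over the genes kept. A positive change means higher in the group named first, and ± after a log2 fold change is its standard error. Intervals of 95% use 13 degrees of freedom. CPM values are per library total. Floors of 3 counts and counting intervals cover counting error only. DESeq2 1.42.0, RLE scaling, no filter, removal of Rn45s, a threshold of 0.01, the compared groups alone, ESC Host 3 and 4 alone, replicate blocks and leaving out each library were tried as alternatives. The calculation was tested on simulated counts. Replicates differed beyond counting error (chi-square per gene 6.73 to 224 over 24 pairs).

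EpiLC and parent libraries of the same number come from the same line, and their deviations from group means correlated at 0.09 to 0.17. The line was therefore also fitted as a block. The X-linked level uses log2(CPM + 0.5) of protein-coding genes above a mean of 5 CPM, centred over the 15 lines.

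Members, pathway genes and markers were chosen with earlier results of these data known. Members called in any comparison, and the 2 most abundant of each role, are described by their values in the libraries compared. Of the other pathway genes, 12 were named by the smallest adjusted p in EpiLC DKO against PGC-ESC DKO, at most 3 a role, with Axin2, Tcf7l1, Lrp5, Lrp6, Porcn and Wls added. The further Wnt gene is not reported here.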

Additional observations from a re-analysis of the deposited data

Results flagged for a closer look

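Each of 24 named genes was examined in PGC-ESC BaxKO and in ESC Host, the groups of 4 or more libraries. In 3 of these 48 cases 1 library stood far from the others. For independent, normally distributed values about 1 in 20 would be flagged. All 3 were ESC Host 1. Dkk1 was at 5.41 CPM there, and the next ESC Host library was at 1.17 CPM. Frzb was at 0.0757 CPM (2 counts) and Wnt9b at 0.0379 CPM (1 count) there, and both were at 0 in ESC Host 2, 3 and 4, so the gaps of Frzb and Wnt9b rest on 1 or 2 counts. A group with a single library above 0 is always flagged. Leaving out ESC Host 1 ended none of the 3 calls in EpiLC Host against ESC Host.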

How the results depend on the processing

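No named member reversed its direction under any alternative; over all named members and alternatives, 654 values kept their side of the threshold, 47 were no longer called and 3 became called (Wnt5b in the DKO lines with the compared groups alone, and Wnt6 in the DKO lines and Dkk3 in the Host lines with the cell line as a replicate block). With that block 22 members were called in the DKO conversion, 16 higher and 6 lower, and 21 in the Host conversion, 16 higher and 5 lower, against 16 and 5, and 15 and 6, without it. Leaving out 1 library gave 19 to 21 calls in the DKO conversion and 15 to 21 in the Host conversion, the lowest without EpiLC Host 3. Without the low-count filter 24 members were called in the DKO conversion. In ESC BaxKO against ESC Host the count of 1 became 0 at a threshold of 0.01, with the compared groups alone and with the replicate number as a replicate block, and ran from 0 (without either ESC BaxKO line, ESC Host 3 or 4) to 2 (without ESC Host 1) when 1 library was left out; the cause was not tested. Replicate numbers of groups other than the conversions are shared only as numbers (correlations of -0.24 to 0.34); with them as a block PGC-ESC BaxKO against ESC Host kept a count of 3, none lower, and the counts of 0 stayed 0. Members near 1 CPM or below, such as Wnt3a, Wnt9b, Wnt16 and Frzb, rest on few counts.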
